A study of Homo sapiens with 15 samples.

Results

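Cholesterol is built from squalene by a chain of enzymes of the endoplasmic reticulum, and 9 genes of this chain were followed in MIA PaCa-2, an established line of human pancreatic carcinoma cells. The genes, FDFT1, SQLE, LSS, CYP51A1, MSMO1, NSDHL, EBP, SC5D and DHCR7, were chosen by name from the 60107 genes listed for each library. All 9 passed the filter on low counts, which kept 10495 genes for testing. RNA was sequenced from 15 libraries in 5 groups of 3, in which the cells received vehicle (Ctrl), Lys05, BAQ12, BAQ13 or BAQ12O, each agent at 5 µM and for 24 h. Lys05 is a bisaminoquinoline that blocks autophagy in the lysosome. BAQ12 and BAQ13 join the bisaminoquinoline scaffold of Lys05 to the features of a lysosomal detergent, differ from each other by a methylene unit, and assemble into nanoparticles in water. BAQ12O is named in the sample labels only, and no structure is given for it here. The sources do not say whether the 3 libraries of a group came from separate cultures, so the p-values measure the spread between libraries, which may be technical.

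FDFT1 (squalene synthase) commits farnesyl diphosphate to sterols, SQLE (squalene epoxidase) adds oxygen to squalene, and LSS (lanosterol synthase) closes the sterol rings. CYP51A1, MSMO1 and NSDHL then take part in removing methyl groups from lanosterol, EBP shifts a double bond, SC5D introduces another, and DHCR7 reduces the last precursor to cholesterol. Genes of this chain are classical targets of SREBP2, a transcription factor that is held in the endoplasmic reticulum while its membranes are rich in sterol and is released for activation when sterol is low. Much of the cholesterol that cells take up as lipoprotein is set free in lysosomes and leaves them through NPC2 and NPC1.

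Expression of the chain was highest with BAQ13, and the mean levels of all 9 genes followed the same order, in which vehicle was lowest and Lys05, BAQ12O, BAQ12 and BAQ13 followed. This order is of arithmetic means, and how many of all genes follow it was not counted. In the tests below, the steps from vehicle to Lys05 and from BAQ12O to BAQ12 passed in 0 of the 9 genes. They passed in 0.0762% and 0.0286% of all genes tested. On the log2 scale CYP51A1 was lower with Lys05 than with vehicle (-0.14) and higher with BAQ12O than with BAQ12 (0.082). Values are normalised read counts, that is, the reads counted on a gene after scaling each library for its depth by a size factor. The 9 genes summed to 793 ± 13.6 normalised counts (SD, n = 3) with vehicle, 894 ± 3.35 with Lys05, 1251 ± 31.5 with BAQ12O, 1539 ± 55.1 with BAQ12 and 3063 ± 84.0 with BAQ13. The sum was thus 1.13, 1.58, 1.94 and 3.86 times that of vehicle, and the 5 groups did not overlap. The 9 genes made up between 0.0377% and 0.0390% of all normalised counts in the vehicle libraries and between 0.142% and 0.148% in the BAQ13 libraries. As the counts are shares of a library, more of a transcript per cell and less of all other RNA cannot be told apart in them.

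The libraries held between 1586566 and 2500551 reads on genes (median 2230594), and 3 reads, taken as the floor, correspond to 2.49 to 4.14 normalised counts. Of the epithelial markers KRT8, KRT18, KRT19, EPCAM and CDH1, the keratins were expressed. EPCAM was at 0 in every group but BAQ12O, where it reached 1.38, and CDH1 did not exceed 6.28, so the epithelial label rests on the keratins, beside a high level of VIM. The 5 epithelial markers summed to between 1715 and 1795 in the vehicle libraries and between 1362 and 1379 in the BAQ13 libraries, and KRT8 and KRT18 fell with BAQ13 and BAQ12O, and KRT8 also with BAQ12, while KRT19 had 496 ± 12.0 normalised counts (SD, n = 3) with vehicle, 539 ± 14.9 with BAQ13 and 538 ± 30.4 with BAQ12O and did not pass the test. The part of this in the results on the sterol genes was not tested. Of PTPRC, PECAM1, COL1A1, ALB and PRSS1, which mark other cells, 3 of 5 were at 0 in every library, and the 5 summed to at most 6.67. Replicate 3 of BAQ12 stood apart from its group. Its log2 values correlated with the other BAQ12 libraries at 0.93 to 0.94 across genes, whereas libraries of the other groups reached at least 0.967 within their group. Its deviation from its group mean correlated at 0.573 across genes with that of replicate 1 of BAQ13, and 7 of the 9 genes deviated with the same sign in both. Some of the results that rest on it are also given without it, and the others only with it.

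The promoters, as listed by RefSeq for GRCh38.p14, are shown for 3 genes because they span the range of responses. MSMO1 had the largest difference from vehicle, NSDHL the smallest one past the test with BAQ13, and CYP51A1 did not pass it. Each run of 300 bases reaches from 250 before to 50 after the transcription start, 5′ to 3′ on the strand of the gene. Capitals mark CCAAT, the motif of the factor NF-Y, which often works beside SREBP2, or its reverse complement ATTGG.
MSMO1 (chr4:165327419-165327718, plus strand): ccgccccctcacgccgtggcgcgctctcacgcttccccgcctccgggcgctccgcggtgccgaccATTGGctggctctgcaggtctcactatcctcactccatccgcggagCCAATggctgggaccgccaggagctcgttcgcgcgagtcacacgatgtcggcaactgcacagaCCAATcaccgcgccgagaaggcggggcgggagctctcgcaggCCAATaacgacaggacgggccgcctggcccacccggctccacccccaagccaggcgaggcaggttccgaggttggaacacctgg
NSDHL (chrX:152830813-152831112, plus strand): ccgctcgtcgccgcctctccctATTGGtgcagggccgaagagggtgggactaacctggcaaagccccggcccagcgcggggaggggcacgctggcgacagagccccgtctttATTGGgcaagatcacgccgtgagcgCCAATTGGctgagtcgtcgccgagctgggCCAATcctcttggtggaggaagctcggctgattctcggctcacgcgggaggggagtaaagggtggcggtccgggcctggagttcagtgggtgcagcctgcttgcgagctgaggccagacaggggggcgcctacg
CYP51A1 (chr7:92134428-92134727, minus strand): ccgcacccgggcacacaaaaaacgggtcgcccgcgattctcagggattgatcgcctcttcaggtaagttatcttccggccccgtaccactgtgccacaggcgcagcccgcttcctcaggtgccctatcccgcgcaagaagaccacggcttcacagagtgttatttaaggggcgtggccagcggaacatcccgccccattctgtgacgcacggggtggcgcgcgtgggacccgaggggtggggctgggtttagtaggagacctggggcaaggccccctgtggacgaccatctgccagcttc
The table held 9 promoters for 7 of the 9 genes, and FDFT1 and SQLE had no entry. CCAAT was found on either strand in 6 of the 7 genes (7 of 9 promoters) and in 34.6% of the 35116 promoters searched. The 2 promoters of SC5D overlap and hold the same CCAAT, and the shares of all promoters are counted by promoter, not by gene. NSDHL held 5 matches, of which those starting at -113 and -110 overlap. MSMO1 held 4 matches, EBP 3, DHCR7 2, and LSS and SC5D 1 each. The GC box GGGCGG was present in 6 of the 7 genes and in 45% of all promoters, and NSDHL was the gene without it. The E-box CACGTG was present in LSS and SC5D, against 7.26% of all promoters. The sterol regulatory element TCACNCCAC was found in 0 of the 7 genes (1.13% of all promoters). A looser form, TCACNNCA, which is contained in the stricter one, was found only in MSMO1, starting at -156 (12.7% of all promoters). Of the 7 genes, NSDHL held the most CCAAT matches, but no more than MSMO1 if its overlapping matches are taken as 1 site. All of these are matches of letters in a fixed window. Binding was not measured, and a link between the matches and the responses was not tested.

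**Figure D1:**
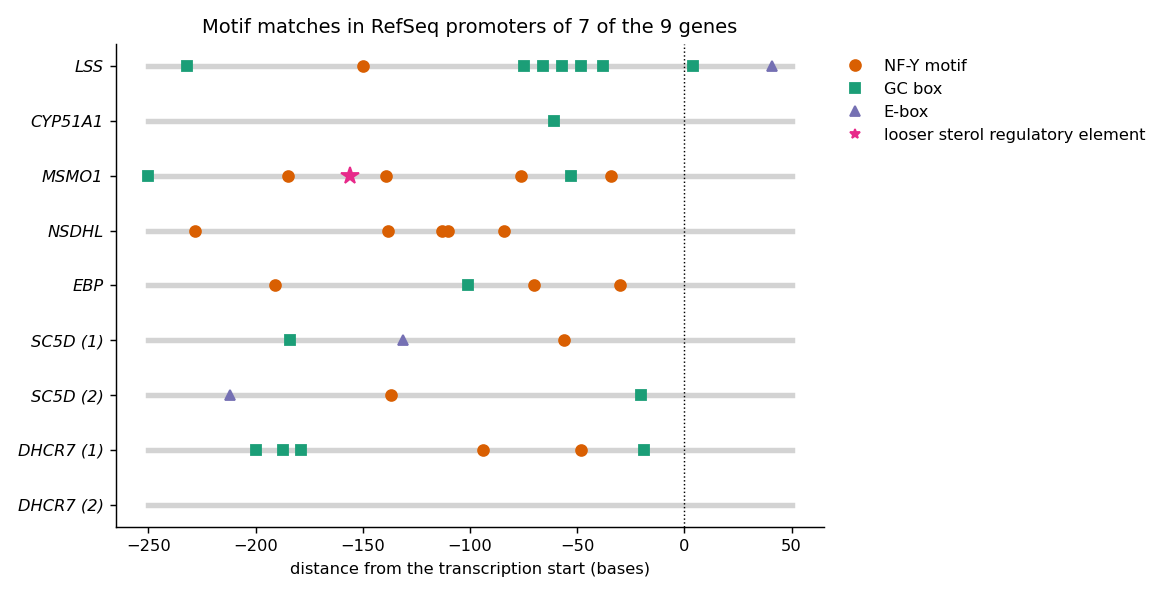
Motif matches in the RefSeq promoters of 7 of the 9 genes, by distance from the transcription start in bases (x axis), with a line for each promoter; SC5D and DHCR7 have 2 promoters each, marked (1) and (2). CCAAT (NF-Y, circles) is seen in 6 of the 7 genes and not in CYP51A1, and the looser sterol regulatory element (star) only in MSMO1.

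Against vehicle, BAQ13 raised 8 of the 9 genes (limma, adjusted p under 0.05 over all genes tested), where 3.58% of all genes tested were higher. The median log2 difference of the 9 was 1.73, and that of all genes tested was -0.0042. All 9 were higher in every BAQ13 library than in every vehicle library, which held for 14.5% of all genes. Without replicate 3 of BAQ12, which shares the estimate of the spread, 9 of 9 passed, and 759 of 10657 genes were then higher. All log2 differences given here are of log2(normalised count + 1) by limma over the 15 libraries, which understates the change of weakly expressed genes, and adjusted p-values are by the Benjamini-Hochberg method. The 4 comparisons with vehicle share the same 3 vehicle libraries.

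BAQ12 raised 6 of the 9 genes (background 0.572%), with a median log2 difference of 0.91, and BAQ12O raised 5 (background 0.934%), with a median of 0.68. The genes that passed with BAQ12O, namely FDFT1, SQLE, LSS, MSMO1 and EBP, also passed with BAQ12, where SC5D was the further gene. In 7 genes with each agent, every treated library lay above every vehicle library, against 7.75% of all genes with BAQ12 and 12.5% with BAQ12O. The counts of the 9 genes past the test were the same without replicate 3 of BAQ12, and the median with BAQ12 was then 1.11. Of all 10657 genes then tested, 78 were higher with BAQ12 and 283 with BAQ12O, against 60 and 98 of 10495 with it. With Lys05, limma called 0 of the 9 genes (background 0.0762%), as did edgeR and DESeq2. At an unadjusted p under 0.05 limma gave 1, SQLE, and the share of all genes at this threshold was not counted. Log2 differences with Lys05 ran from -0.14 for CYP51A1 to 0.35 for LSS, with a median of 0.17. In FDFT1, SQLE and EBP every Lys05 library was above every vehicle library, which held for 8.24% of all genes.

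**Figure D2:**
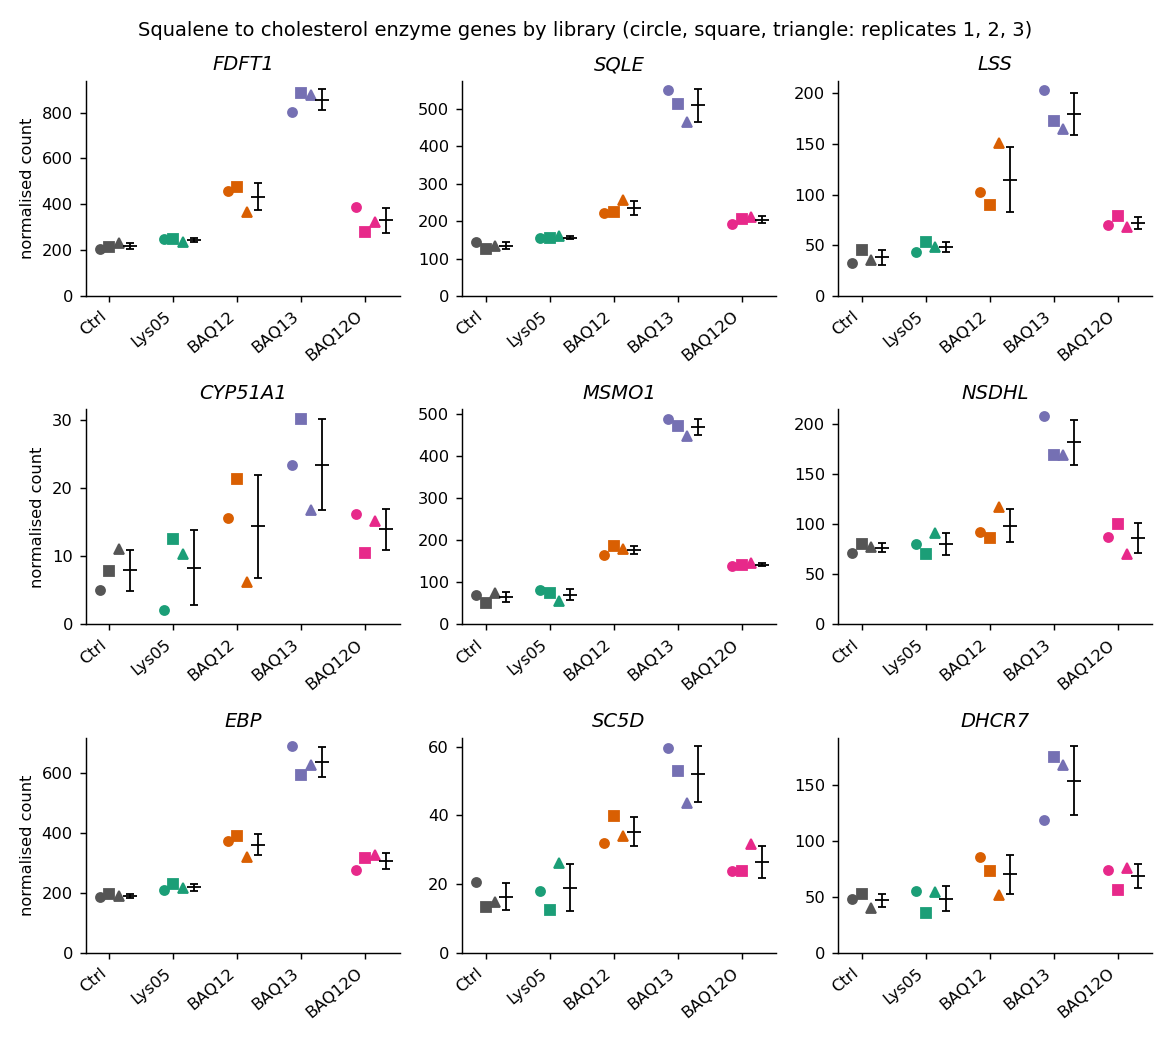
Normalised counts (y axes, starting at 0) of the 9 genes in each of the 15 libraries, by group (x axes); bars give mean ± SD, n = 3. The BAQ13 libraries lie above all others in 8 of the 9 panels, and in CYP51A1 they overlap with BAQ12. The share of all genes with BAQ13 above all other groups was not counted.

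**Figure D3:**
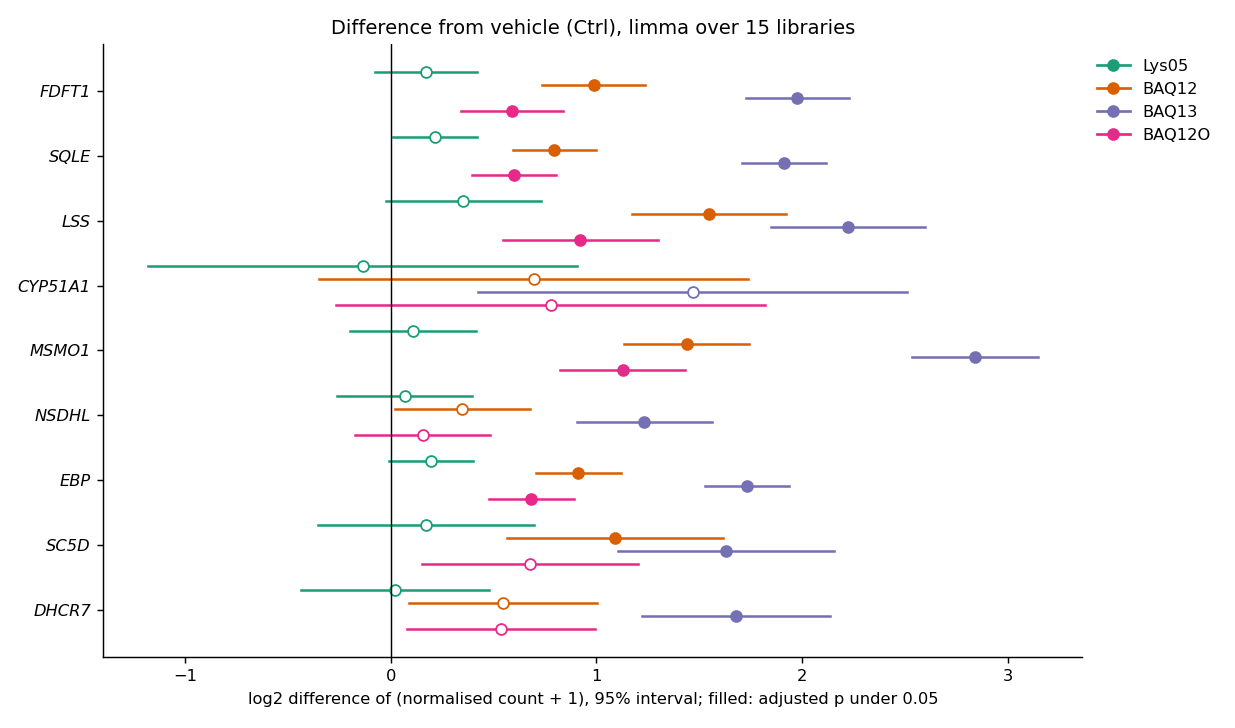
Log2 differences from vehicle of the 9 genes (x axis) by limma, with 95% intervals, for Lys05, BAQ12, BAQ13 and BAQ12O; filled points have an adjusted p under 0.05. BAQ13 has the largest difference in every gene, from 1.23 in NSDHL to 2.84 in MSMO1.

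FDFT1 (ENSG00000079459; chr8:11795573-11839309 in GRCh38, plus strand) encodes the enzyme that joins farnesyl diphosphates to squalene. Its normalised counts were 205, 213 and 232 with vehicle, 250.2, 248 and 234 with Lys05, 388, 277 and 323 with BAQ12O, 459.5, 476 and 364 with BAQ12, and 802.5, 887 and 878 with BAQ13. Lys05 lay just above vehicle, BAQ12O and BAQ12 overlapped each other and lay above both, and BAQ13 stood clear of all. The log2 difference from vehicle was 1.98 with BAQ13 (SE 0.12, adjusted p = 5.8e-09 by limma), 0.99 with BAQ12 (adjusted p = 8.6e-05) and 0.59 with BAQ12O (adjusted p = 0.015). The call with BAQ12O was lost without replicate 1 of Ctrl (limma, adjusted p = 0.0799), replicate 2 of Ctrl (0.0745), replicate 1 of BAQ12O (0.0952) or replicate 3 of BAQ12O (0.0617).

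SQLE (ENSG00000104549; chr8:124998497-125022283, plus strand), which encodes a rate-limiting oxygenase of sterol synthesis, had narrow groups. Its normalised counts were 144.5, 126 and 133 with vehicle, 154, 154 and 160 with Lys05, 193, 207 and 212 with BAQ12O, 222, 225 and 256 with BAQ12, and 551.5, 513 and 464 with BAQ13. None of the 5 groups overlapped with another. The log2 difference from vehicle was 1.91 with BAQ13 (SE 0.10, adjusted p = 7.6e-10 by limma), 0.80 with BAQ12 (adjusted p = 9.2e-05), 0.60 with BAQ12O (adjusted p = 0.0027) and 0.21 with Lys05 (adjusted p = 0.95).

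LSS (ENSG00000160285; chr21:46188141-46228824, minus strand), whose enzyme folds oxidosqualene into lanosterol, had normalised counts of 32.4, 45.8 and 35.8 with vehicle, 43.7, 53.1 and 48.5 with Lys05, 70.1, 79.1 and 67.6 with BAQ12O, 103, 90.1 and 151 with BAQ12, and 203, 172 and 164 with BAQ13. Vehicle and Lys05 overlapped, BAQ12O and BAQ12 lay above them without overlap, and replicate 3 of BAQ12 came close to the lowest BAQ13 library. The log2 difference was 2.22 with BAQ13 (SE 0.18, adjusted p = 2.5e-07 by limma), 1.55 with BAQ12 (adjusted p = 6.3e-05) and 0.92 with BAQ12O (adjusted p = 0.011). Without replicate 3 of BAQ12 the difference with BAQ12 was 1.33 (adjusted p = 2.7e-06 by limma). The call with BAQ12O was lost without replicate 1 of Ctrl (limma, adjusted p = 0.0749), replicate 3 of Ctrl (0.0683) or replicate 2 of BAQ12O (0.0743).

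CYP51A1 (ENSG00000001630; chr7:92112151-92134803, minus strand), the cytochrome P450 that starts the demethylation of lanosterol, was counted with only 2 to 33 reads in a library. Its normalised counts were 4.98, 7.82 and 11.02 with vehicle, 2.13, 12.5 and 10.3 with Lys05, 16.2, 10.5 and 15.2 with BAQ12O, 15.6, 21.3 and 6.28 with BAQ12, and 23.3, 30.1 and 16.8 with BAQ13. The BAQ13 libraries lay above all vehicle libraries, whereas the other groups overlapped with vehicle. Replicate 1 of Lys05 was under the floor of 3 reads. The log2 difference with BAQ13 was 1.47, with a 95% interval from 0.42 to 2.51, and did not pass the test (adjusted p = 0.095 by limma). It passed by edgeR (adjusted p = 0.0352), by DESeq2 (0.0319), with only the 6 libraries compared (0.0102) and without replicate 3 of BAQ12 (0.0137). Gene models AC000120.2 and AC000120.3 overlap CYP51A1 on the same strand in GENCODE release 29, and how reads in shared sequence were counted is not given in the sources used here.

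MSMO1 (ENSG00000052802; chr4:165327623-165343160, plus strand), a methylsterol oxygenase of the demethylation complex, had the largest difference of the 9 genes with BAQ13 and with BAQ12O. Its normalised counts were 69.7, 51.4 and 75.3 with vehicle, 82.0, 73.9 and 56.0 with Lys05, 139, 142 and 146 with BAQ12O, 166, 187 and 178 with BAQ12, and 488, 472 and 448 with BAQ13. Vehicle and Lys05 overlapped, and each of the other groups lay above them and apart from the next. The means were 65.5 ± 12.5 (SD, n = 3) with vehicle and 469.5 ± 20.0 with BAQ13, a ratio of 7.17. The log2 difference was 2.84 with BAQ13 (SE 0.14, adjusted p = 7.6e-10 by limma), 1.44 with BAQ12 (adjusted p = 1.1e-05) and 1.13 with BAQ12O (adjusted p = 0.00044).

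NSDHL (ENSG00000147383; chrX:152830967-152869729, plus strand), a dehydrogenase of the same complex, moved least. Its normalised counts were 71.4, 80.4 and 77.1 with vehicle, 79.9, 69.8 and 91.5 with Lys05, 87.3, 100.1 and 70.3 with BAQ12O, 91.7, 85.9 and 117 with BAQ12, and 207, 169 and 168 with BAQ13. Only BAQ13 stood clear of the other groups, while Lys05 and BAQ12O overlapped with vehicle and BAQ12 lay just above it. The log2 difference was 1.23 with BAQ13 (SE 0.16, adjusted p = 5.6e-05 by limma), 0.35 with BAQ12 (adjusted p = 0.41) and 0.16 with BAQ12O (adjusted p = 0.73).

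EBP (ENSG00000147155; chrX:48521158-48528716, plus strand), the sterol isomerase, had normalised counts of 186, 198 and 189 with vehicle, 209, 231 and 217 with Lys05, 277, 318 and 328 with BAQ12O, 372, 390.2 and 322 with BAQ12, and 692, 594 and 626 with BAQ13. Lys05 lay above vehicle without overlap, BAQ12O and BAQ12 overlapped through replicate 3 of BAQ12, and BAQ13 lay highest. The log2 difference was 1.73 with BAQ13 (SE 0.10, adjusted p = 2.8e-09 by limma), 0.91 with BAQ12 (adjusted p = 2.6e-05) and 0.68 with BAQ12O (adjusted p = 0.00099).

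SC5D (ENSG00000109929; chr11:121292453-121308694, plus strand), the desaturase before the last step, had normalised counts of 20.8, 13.4 and 14.7 with vehicle, 18.1, 12.5 and 26.1 with Lys05, 23.7, 23.8 and 31.7 with BAQ12O, 32.1, 39.95 and 33.9 with BAQ12, and 59.7, 52.9 and 43.6 with BAQ13. Lys05 overlapped with vehicle and with BAQ12O, and the BAQ12 and BAQ13 libraries lay above both without overlap. The log2 difference was 1.63 with BAQ13 (SE 0.25, adjusted p = 0.00043 by limma), 1.09 with BAQ12 (adjusted p = 0.045) and 0.68 with BAQ12O (adjusted p = 0.23). The call with BAQ12 was lost without replicate 2 of Ctrl (limma, adjusted p = 0.264), replicate 3 of Ctrl (0.202), replicate 1 of BAQ12 (0.0618) or replicate 2 of BAQ12 (0.128), as well as with no filter on low values (0.0708) and with only the 6 libraries compared (0.255).

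DHCR7 (ENSG00000172893; chr11:71428193-71452868, minus strand), the reductase that yields cholesterol, had normalised counts of 48.2, 52.5 and 40.4 with vehicle, 55.4, 35.4 and 54.1 with Lys05, 74.4, 56.3 and 75.8 with BAQ12O, 86.2, 73.1 and 51.5 with BAQ12, and 118.5, 175 and 168.5 with BAQ13. BAQ13 lay above all other groups, and replicate 3 of BAQ12 lay within the range of vehicle. The mean with BAQ12 was 1.495 times that with vehicle, and 1.695 times without that replicate. The log2 difference was 1.68 with BAQ13 (SE 0.22, adjusted p = 6.8e-05 by limma), 0.55 with BAQ12 (adjusted p = 0.34) and 0.54 with BAQ12O (adjusted p = 0.29), and with only the 6 libraries compared BAQ12O passed (adjusted p = 0.030). The antisense gene AP002387.1 overlaps DHCR7 and was counted with 548 reads over the 15 libraries. It had 58.7 ± 18.6 normalised counts (SD, n = 3) with BAQ13 and 22.7 ± 3.66 with vehicle (log2 difference 1.29, adjusted p = 0.015 by limma). Whether the counting used strand is not given in the sources used here, and without strand the reads of the 2 genes cannot be told apart.

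The agents were compared with each other in 6 pairs at the same dose and time, with p-values adjusted over all genes in each pair, and adjustment over the 10 comparisons together changed no call on the 9 genes. BAQ13 was higher than BAQ12, from which it differs by a methylene unit, in 6 of the 9 genes (background 0.505%). These were MSMO1, DHCR7, SQLE, FDFT1, NSDHL and EBP, whose mean levels were 1.76 (EBP) to 2.65 (MSMO1) times those with BAQ12. SQLE differed by 1.12 on the log2 scale (SE 0.10, adjusted p = 5.6e-06 by limma) and DHCR7 by 1.13 (SE 0.22, adjusted p = 0.017). LSS differed by 0.68 (95% interval 0.30 to 1.05, adjusted p = 0.14), SC5D by 0.54 (0.016 to 1.07, adjusted p = 0.59) and CYP51A1 by 0.77 (-0.27 to 1.82, adjusted p = 0.76). Without replicate 3 of BAQ12, LSS also passed (0.89, adjusted p = 0.0014), and 180 of 10657 genes were then higher. The call on NSDHL was lost without replicate 2 of BAQ12 (adjusted p = 0.0566) or replicate 1 of BAQ13 (0.0598), and that on DHCR7 without replicate 2 of BAQ13 (0.146) or replicate 3 of BAQ13 (0.12). With only the 6 libraries compared, NSDHL, EBP and DHCR7 did not pass (adjusted p = 0.222, 0.0819 and 0.291).

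BAQ12O and BAQ12 did not differ past the test in these genes. By limma, 0 of the 9 were higher with BAQ12O than with BAQ12 (background 0.2%) and 0 were lower (background 0.0286%), as by edgeR and DESeq2. At an unadjusted p under 0.05 by limma there were 4, all lower with BAQ12O. The share of all genes at that unadjusted threshold was not counted. The log2 differences ran from -0.63 for LSS (95% interval -1.002 to -0.25) to 0.082 for CYP51A1 (-0.96 to 1.13), with a median of -0.23. For MSMO1 the difference was -0.31 (-0.62 to -0.0058), and for SQLE it was -0.20 (-0.40 to 0.0056). Without replicate 3 of BAQ12, FDFT1 was lower with BAQ12O (-0.52, adjusted p = 0.0098 by limma). BAQ12O was lower than BAQ13 in 7 of the 9 genes (background 0.924%), with log2 differences from -1.05 for EBP to -1.71 for MSMO1. SC5D (-0.95, adjusted p = 0.080) and CYP51A1 (-0.69, adjusted p = 0.67) did not pass by limma, and SC5D passed by edgeR (adjusted p = 0.0309) and DESeq2 (0.0414) and without replicate 3 of BAQ12 (0.022). The call on DHCR7 was lost without replicate 2 of BAQ13 (adjusted p = 0.0795), replicate 3 of BAQ13 (0.0541) or replicate 2 of BAQ12O (0.0748).

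Against Lys05, BAQ13 was higher in 8 of the 9 genes (background 1.88%), all but CYP51A1, with log2 differences from 1.17 for NSDHL to 2.73 for MSMO1. CYP51A1 differed by 1.61 (adjusted p = 0.11 by limma) and passed without replicate 3 of BAQ12 (0.0117). BAQ12 was higher than Lys05 in 5 genes (background 0.133%), MSMO1 (1.33), LSS (1.19), FDFT1 (0.82), EBP (0.72) and SQLE (0.58). With only the 6 libraries of this pair, 0 of all 9844 genes tested passed by limma and so 0 of the 9, with adjusted p-values of 0.268 for MSMO1, 0.342 for FDFT1, 0.342 for EBP, 0.412 for LSS and 0.567 for SQLE. The call on SQLE was lost without replicate 1 (adjusted p = 0.101), replicate 2 (0.113) or replicate 3 of Lys05 (0.0634), and that on LSS without replicate 1 of Lys05 (0.0542). BAQ12O was higher than Lys05 in 2 genes (background 0.219%), MSMO1 (1.02, adjusted p = 0.0014) and EBP (0.49, adjusted p = 0.046). EBP was not called by edgeR (adjusted p = 0.0563), nor without replicate 1 (0.286), replicate 2 (0.0945) or replicate 3 of Lys05 (0.173) or replicate 2 (0.266) or replicate 3 of BAQ12O (0.28). Without replicate 3 of BAQ12, FDFT1 (adjusted p = 0.0243) and SQLE (0.0357) passed as well, and 59 of 10657 genes were then higher. With only the 6 libraries compared, FDFT1, SQLE and LSS passed, with adjusted p-values of 0.0053, 0.0183 and 0.0343, and 120 of 9707 genes were higher.

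**Figure D4:**
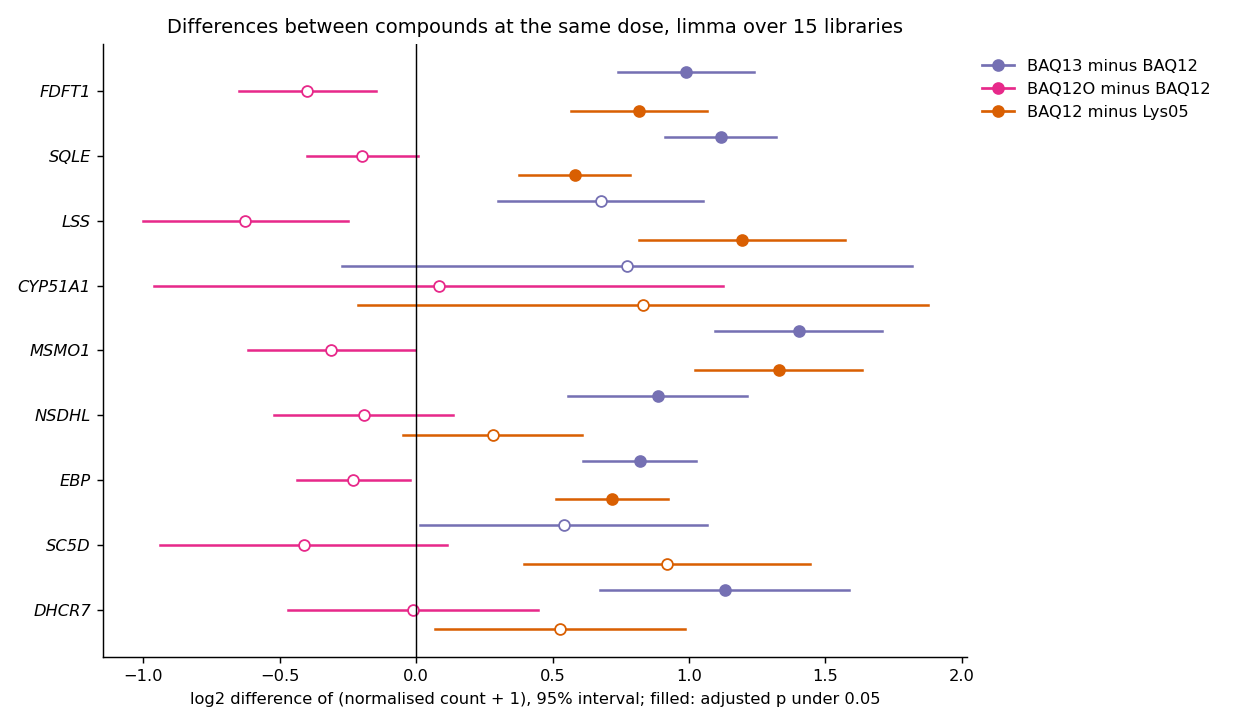
Log2 differences between agents at 5 µM for the 9 genes (x axis) by limma, with 95% intervals; filled points have an adjusted p under 0.05. BAQ13 exceeds BAQ12 in 6 filled points, BAQ12 exceeds Lys05 in 5, and no point is filled for BAQ12O against BAQ12.

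Other enzymes after squalene moved less uniformly. HSD17B7, the ketoreductase that works beside NSDHL, rose with BAQ13 from 61.7 ± 9.17 (SD, n = 3) to 114 ± 9.64 normalised counts (log2 difference 0.88, adjusted p = 0.013 by limma), and TM7SF2, a sterol reductase, rose from 70.9 ± 8.99 to 107 ± 11.9 (log2 difference 0.59, adjusted p = 0.023). LBR, which has the same reductase activity as TM7SF2, differed by 0.16 (adjusted p = 0.34) and FAXDC2 by 0.15 (adjusted p = 0.81). Of 6 helpers of the chain, which are ERG28 and carriers of electrons or haem, ERG28 (listed as C14orf1), a scaffold of the demethylation complex, rose with BAQ13 (1.29, adjusted p = 0.012). Without replicate 3 of BAQ12, 3 of the 6 passed with BAQ13. Of all 10657 genes then tested, 759 were higher with BAQ13, against 376 of 10495 with that library.

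The enzymes that lead from acetyl-CoA to farnesyl diphosphate rose as well. Of 8 tested, 7 rose with BAQ13, 4 with BAQ12, 2 with BAQ12O and 0 with Lys05, with medians of 1.86, 0.72, 0.53 and 0.15. HMGCS1 had the largest difference with BAQ13 (3.39, adjusted p = 1.9e-08 by limma), and PMVK was the gene that did not pass (0.30, adjusted p = 0.47). Without replicate 3 of BAQ12 the counts were 7, 6, 4 and 1, the gene with Lys05 being FDPS (0.50, adjusted p = 0.00093). Of all 10657 genes then tested, 759, 78, 283 and 25 were higher, against 376, 60, 98 and 8 of 10495 with it. Of 6 genes that lead farnesyl diphosphate to other products, such as prenylated proteins, dolichol and coenzyme Q, 0 passed by limma with any agent, and without replicate 3 of BAQ12 1 did with BAQ13, GGPS1 (0.45, adjusted p = 0.025). These lists, like the 9 genes, were chosen with earlier results on the same libraries known.

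Of 7 genes that sense sterol or process SREBP, 2 rose and 1 fell with BAQ13, where 2.19% of all genes tested were lower than with vehicle. INSIG1, which retains SREBP and is itself an SREBP target, rose from 121 ± 12.1 (SD, n = 3) to 537 ± 67.7 normalised counts (log2 difference 2.14, adjusted p = 6.3e-09 by limma), SREBF2, the gene of SREBP2, differed by 0.63 (adjusted p = 0.0025), and SREBF1 fell by 0.72 (adjusted p = 0.019). INSIG1 also rose with BAQ12 (0.63, adjusted p = 0.022). NPC2, through which cholesterol leaves the lysosome, rose with BAQ13 (0.96, adjusted p = 5.6e-05) and BAQ12 (0.60, adjusted p = 0.019). A further list held liver X receptor targets, which respond to excess sterol, with genes of the receptor itself and of esterification. Of its 5 genes tested, 3 fell with BAQ13 (background 2.19%) and 0 rose. ABCG1, a sterol exporter, had 24.1 ± 1.36 (SD, n = 3) normalised counts with vehicle and 6.04 ± 2.33 with BAQ13 (log2 difference -1.90, adjusted p = 0.00068 by limma), ABCA1, another exporter, differed by -1.69 (adjusted p = 0.0081) and lay between 1.82 and 3.35 with BAQ13, near the floor, and MYLIP, a ubiquitin ligase, by -0.88 (adjusted p = 0.0046).

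**Figure D5:**
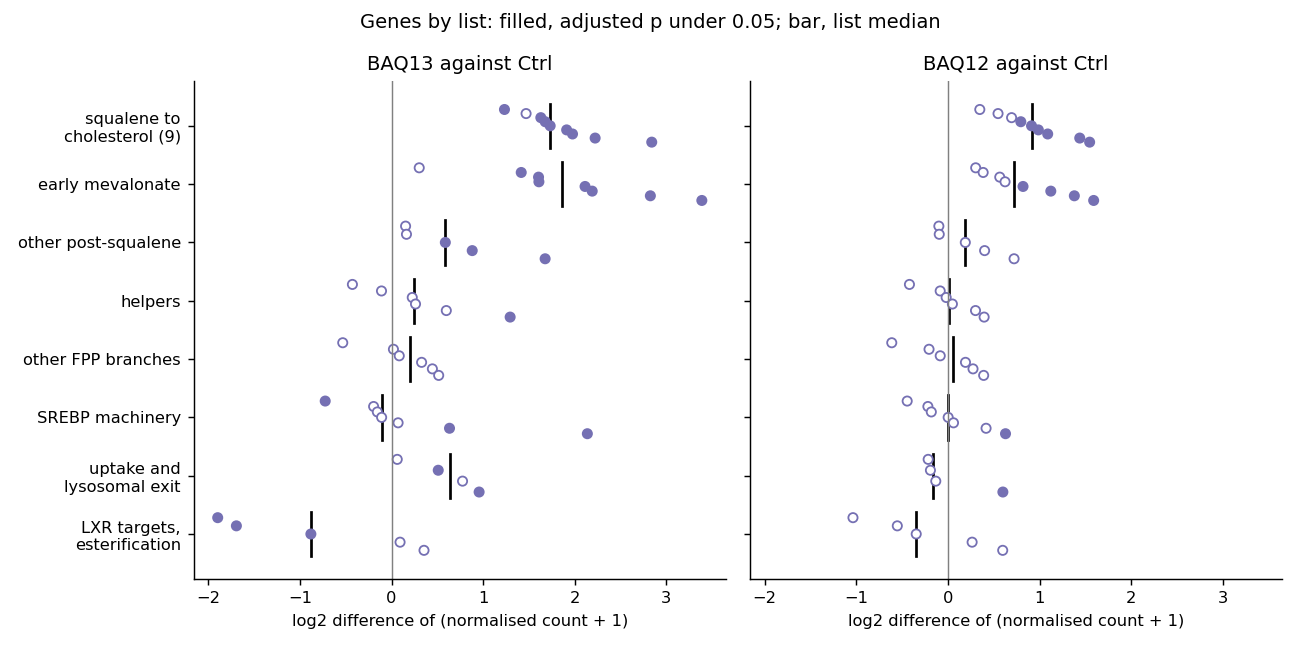
Log2 differences from vehicle (x axes) of the genes of each list (rows) with BAQ13 and with BAQ12, by limma; filled points have an adjusted p under 0.05, bars give the median of a list, FPP is farnesyl diphosphate and LXR the liver X receptor. With BAQ13 the 9 genes (median 1.73) and the early mevalonate genes (median 1.86) lie to the right, and 3 filled genes of the last list lie to the left.

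The 9 genes varied together over the 15 libraries. The log2 value of EBP correlated with the mean of the other 8, each scaled to its own mean and spread, at r = 0.985, and CYP51A1 was lowest at r = 0.667. LSS moved from 0.926 to 0.974 without replicate 3 of BAQ12. The pattern was not particular to the 9. Outside them, 297 genes correlated with the mean of the 9 more closely than the least like of the 9 did. Of the tested genes of the other lists, ACAT2 (r = 0.965) and HMGCS1 (0.962) were highest and ABCG1 (-0.909) was lowest. The tested genes outside all lists whose pattern was most like the mean of the 9 were FASN (r = 0.973), ACSS2 (0.973), LITAF (0.971), LPIN1 (0.964), CLTA (0.962) and MAP4 (0.961), and without replicate 3 of BAQ12 these values lay between 0.962 and 0.980. FASN makes fatty acids and ACSS2 makes acetyl-CoA from acetate. The mean level of FASN was 499 normalised counts with vehicle and 1708 with BAQ13, whereas that of MAP4, a microtubule protein, was 409 and 536. The libraries share 5 treatments and their size factors, so these correlations are given as a description, with no test.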

How the data were processed

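For each library the authors deposited a signal for every gene, its read count scaled by the library's size factor. The submitters' processing notes name STAR, HTSeq, DESeq2 and GRCh38 (hg38), without roles. The annotation release is not given in the sources used here, and the library kit is a 3′-end kit in the labels but stranded and paired-end in the methods, so levels were not compared between genes. Values in the deposited signal were whole multiples (within 0.01) of 1 step in 100% of cases, so whole reads were recovered for edgeR and DESeq2.

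Groups and replicate numbers came from the sample titles. limma 3.58.1 (R 4.3.3; eBayes with a variance trend) was fitted to log2(value + 1) over 5 groups and all 15 libraries, for 10495 genes kept by edgeR's filterByExpr (minimum count 10, minimum total 15) on the recovered reads, with Benjamini-Hochberg adjustment and a threshold of 0.05. The model was tested on simulated data. Alternatives were edgeR 4.0.16 (quasi-likelihood), DESeq2 1.42.0, pseudocounts of 0.1 and 5, TMM scaling, other filters, the 6 libraries compared, a replicate block, another threshold and leaving out each library. A library was left out only in the comparisons of its own group, except replicate 3 of BAQ12, which was left out in all. Coordinates are from GENCODE release 29 and promoters from RefSeq, in which both strands were searched. Tables and figures were made in Python 3.11.15 (pandas 2.3.3, numpy 2.4.6, matplotlib 3.10.9).

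The 9 genes, the other lists and the tests were chosen with earlier results of these data known. All 9 genes are named in every comparison. Genes of other lists are named where they passed in at least 1 comparison with vehicle, and LBR, FAXDC2, PMVK and GGPS1 were named after their values were seen. Some genes of these lists are not reported here. The 6 genes outside the lists are those most correlated with the mean of the 9. The floor of 3 reads covers counting error only.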

Additional observations from a re-analysis of the deposited data

How the results depend on the processing

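Of the 90 differences of single genes, 47 were past the threshold, and 0 of these changed direction under any alternative that could be run. Over 829 alternative values of these 47, the call was lost in 56, and 28 of the 47 were never lost. With at least 10 reads in every library, CYP51A1 could not be tested.

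With a threshold of 2 on the fold change and 0.05 on the unadjusted p, the number of the 9 genes called higher was 3 for BAQ12 against Ctrl, 1 for BAQ12O against Ctrl, 2 for BAQ12 against Lys05, 1 for BAQ12O against Lys05 and 3 for BAQ13 against BAQ12. Of all 10495 genes, 61, 65, 29, 50 and 49 were higher in these comparisons. With only the 6 libraries compared the number of the 9 was 0 for BAQ12 against Lys05 (0 of all 9844 genes), 5 for BAQ12O against Lys05 (120 of 9707) and 3 for BAQ13 against BAQ12 (9 of 10022). For BAQ12O against Lys05 it was 1 with edgeR (21 of 10495), with TMM scaling (21 of 10495) and with no filter on low values (19 of 22539).

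Each comparison was refitted without each library of its own groups and without replicate 3 of BAQ12, but not without the other libraries. The refits gave 3 to 5 genes for BAQ12O against Ctrl, 3 to 5 for BAQ12 against Lys05, 1 to 4 for BAQ12O against Lys05, and 0 to 1 lower for BAQ12O against BAQ12. Over all 10656 to 10691 genes tested in these fits, the ranges were 49 to 283, 7 to 20, 19 to 59 and 0 to 11. None of the differences that changed sign had passed the test. Against Ctrl, Lys05 differed by -0.53 to 0.52 in CYP51A1 (0.096 with edgeR and 0.084 with DESeq2), -0.054 to 0.27 in MSMO1, -0.029 to 0.16 in NSDHL, -0.083 to 0.42 in SC5D and -0.092 to 0.22 in DHCR7. BAQ12O against Lys05 ran from -0.028 to 0.22 in NSDHL. BAQ12O against BAQ12 ran from -0.38 to 0.42 in CYP51A1 (-0.15 with edgeR and -0.094 with DESeq2) and from -0.22 to 0.15 in DHCR7. The cause of these changes was not tested.

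No pairing of the libraries by the replicate numbers of the labels was seen, and whether libraries shared a batch was not tested. In 30 pairs of same-numbered libraries, the deviations from the group means correlated across genes at -0.49 to 0.20 (median -0.012), 4 were over 0.1, and a library matched its own number best in 9 of 30. With a replicate block in the fit, 5 of the 9 genes were higher for BAQ12 against Ctrl (46 of all 10495), where SC5D was lost (adjusted p = 0.0794 by limma). For BAQ12O against Lys05 it was 1 (19 of 10495), where EBP was lost (0.107), and the counts of the 9 in the other comparisons did not change. CYP51A1 was counted with 2 to 33 reads in a library and SC5D with 12 to 64, which limits the precision of both.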
